A study of Mus musculus with 20 samples.

Results

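The response of mouse macrophages to lipopolysaccharide (LPS) was compared between cells with and without silencing of Brg1, gene by gene, as an interaction. For each gene, the change on LPS with control siRNA was subtracted from the change on LPS with Brg1 siRNA, each taken on log2(value + 1) of the deposited normalized value. A positive interaction means that the gene stood higher on LPS, relative to vehicle, in the silenced cells than in the control cells, and the same number is the knockdown effect on LPS minus the knockdown effect in vehicle. The libraries were chosen by their labelled siRNA and treatment, not by any measured value: 12 of the 20 libraries of the series, in 4 groups of 3, carry the comparison. Of the 17787 genes in the table, 11848 reached a normalized value of at least 10 in at least 3 of the 12 libraries and were tested.

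Macrophages were grown for 7 days from the bone marrow of male C57BL/6J mice in medium conditioned by L929 cells, and then received 50 nM of either a control siRNA or an siRNA against Brg1 for 48 h, with 1 siRNA product per arm. In the last 6 h the cells of each arm were given vehicle (0.1% ethanol with 0.1% phosphate-buffered saline) or 100 ng/ml LPS with 0.1% ethanol. The remaining 8 libraries, 4 per siRNA, came from cells given LPS together with 1 µM dexamethasone (Dex, a synthetic glucocorticoid), and were kept apart as a second readout. The labels do not name the mouse or dish behind each replicate, and p-values hence describe the variation among these libraries alone. Effects of an siRNA other than silencing of its target cannot be told apart from the knockdown. In bulk RNA, fewer cells of a type and less RNA per cell cannot be told apart either.

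Brg1, encoded by Smarca4, is an ATPase of the BAF (SWI/SNF) complexes, which use ATP to slide or evict nucleosomes and so open chromatin to transcription factors. LPS binds CD14, Toll-like receptor 4 and MD-2. The receptor signals through MyD88 and TRIF to NF-kappaB, AP-1 and interferon regulatory factors, which induce inflammatory genes in waves. Immediate early genes and some cytokines are induced without new protein synthesis, others need newly made factors or remodelled nucleosomes, and interferon-beta made by the cells then drives interferon-stimulated genes. LPS also turns macrophages towards glycolysis.

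Smarca4 (chr9:21616169-21704230 in GRCm38, forward strand) read 1476, 1538 and 1626 in the control vehicle libraries and 365, 358 and 340.2 in the silenced vehicle libraries. The control libraries reached 2989.8, 2899 and 2751 on LPS, against 621, 559.5 and 600.1 in the silenced ones. The knockdown was 4.36-fold in vehicle and 4.85-fold on LPS, with no overlap between arms, and its interaction was -0.16 ± 0.08 (SE; limma adjusted p = 0.25). Scaling each library to its plain total instead of the deposited size factors called this interaction lower (adjusted p = 0.0483). Library depth was 13.69 to 17.64 M reads. The 30 macrophage genes checked were all in the table, and their sum was 2.67% to 4.25% of the normalized total in the 12 libraries, while the sums of neutrophil, B cell, dendritic, mast cell, T cell, fibroblast and erythroid markers were at most 0.0264%. Control LPS replicate 3 and Brg1 siRNA LPS replicate 2 carry library numbers of a second, higher series, and no vehicle library does, so the interaction has no value within that series.

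Silencing of Brg1 was followed by a changed LPS response in both directions. The interaction was higher for 1072 genes (9.05% of those tested) and lower for 827 (6.98%) at a limma adjusted p under 0.05, with a median of 0.02 over all tested genes, quartiles of -0.27 and 0.27 and a median SE of 0.18. Genes of NF-kappaB control and chemoattractant receptors were among those with a higher interaction, and glycolytic and interferon-stimulated genes among those with a lower one. A higher interaction can be a larger rise or a smaller fall on LPS. The split of calls depended on the scaling: with plain library totals 737 genes were higher and 1215 lower, where the median of all interactions moved by -0.10, and with TMM factors 921 were higher and 955 lower. LPS alone changed most tested genes: 37.8% rose and 38.7% fell with control siRNA, and 37.3% rose and 39.3% fell with Brg1 siRNA. The knockdown raised 12.2% and lowered 13.5% of tested genes in vehicle, and raised 20.3% and lowered 18.4% on LPS. With plain totals the median LPS response moved by -0.58 with control siRNA and by -0.68 with Brg1 siRNA, so a direction on LPS below is relative to the deposited scaling.

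**Figure D1:**
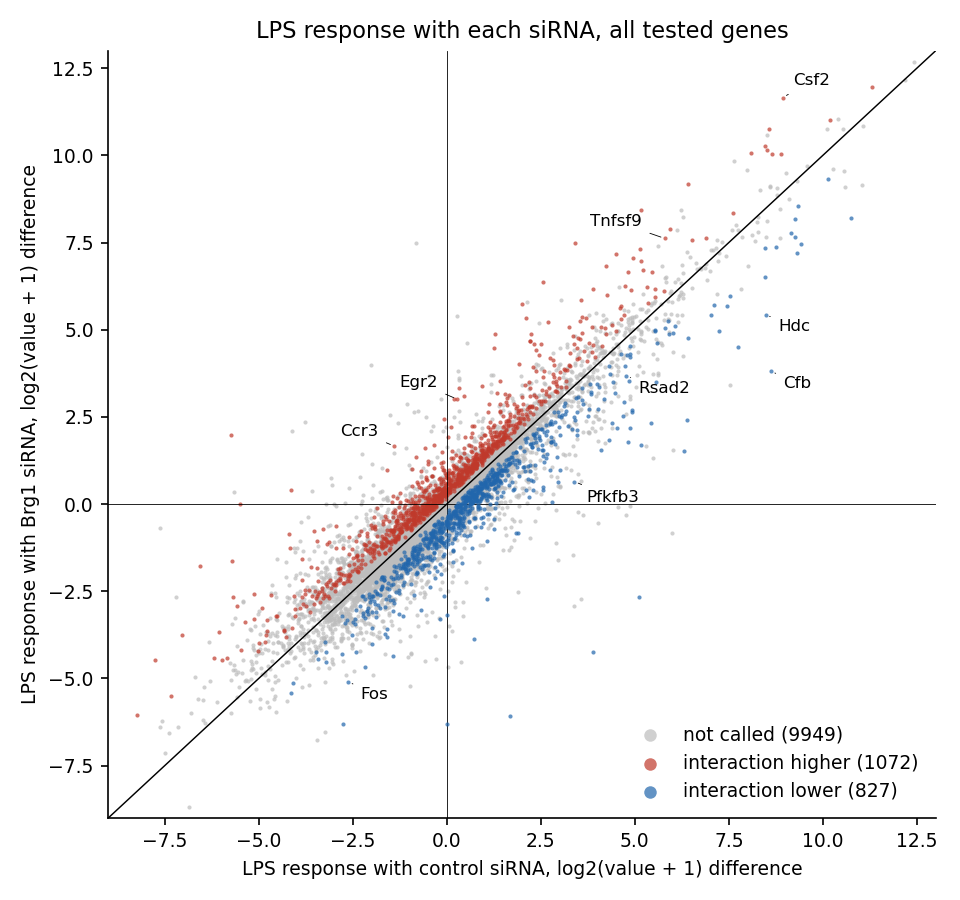
LPS response (LPS against vehicle, difference of log2(value + 1)) of each of the 11848 tested genes with control siRNA on the horizontal axis and with Brg1 siRNA on the vertical axis. The line marks equal responses: the 1072 genes called higher (red) lie above it and the 827 called lower (blue) below it, and the spread of uncalled genes (grey) is widest at the extremes, where 1 group is near 0.

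The receptor end of the pathway was called at about the share of all tested genes. Of 24 genes of Toll-like receptor 4 signalling, 3 were called higher (12.5%, against 9.05% of all) and 1 lower (4.17%, against 6.98%), with a median of 0.04. Plain totals, TMM factors and edgeR each called 3 lower. Cd14, the co-receptor that hands LPS to Toll-like receptor 4, read 4288, 3691 and 3852 in vehicle and 44396, 40606 and 48914 on LPS with control siRNA. In silenced cells it read 2328, 2850.1 and 2634 in vehicle and 67789, 76500.2 and 69032 on LPS. Silenced cells thus started below and ended above the control cells without overlap, an 11.3-fold against a 27.3-fold response, and the interaction was 1.27 ± 0.13 (adjusted p = 5.94e-05). Ticam2, the adaptor that links the receptor to TRIF, rose 2.64-fold with control and 6.22-fold with Brg1 siRNA (interaction 1.24 ± 0.08, adjusted p = 4.62e-06), and 15.7% of its 31-base words occur in transcripts of another gene. Ikbke, a kinase that activates interferon regulatory factors, went the other way: the knockdown raised it by 0.98 in vehicle and by 0.48 on LPS, both as log2, for an interaction of -0.51 ± 0.10 (adjusted p = 0.00559). The third gene called higher, Irak1, lost its call when any 1 of 8 libraries was left out (adjusted p up to 0.0686).

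Several NF-kappaB subunits and inhibitors responded more strongly in silenced cells. Of 17 tested genes, 8 were called higher (Nfkb1, Rel, Rela, Nfkbib, Nfkbie, Nfkbid, Nfkbiz and Otulin) and 1 lower (Tnip1), with a median interaction of 0.32 against 0.02 for all tested genes. As shares this was 47.1% and 5.88%, against 9.05% and 6.98% of all tested genes. The median knockdown effect of the list was 0.01 in vehicle and 0.33 on LPS. Nfkbiz encodes an atypical inhibitor family member that works in the nucleus as a co-activator of secondary genes. It read 272, 297 and 229.8 in control vehicle libraries and 122, 140.0 and 126 in silenced ones, then 9617, 10008 and 9801 and 13677, 13344 and 13879 on LPS. The order of the arms turned over between vehicle and LPS, with no overlap in either, and the interaction was 1.51 ± 0.12 (adjusted p = 1.06e-05). Nfkbie, which holds NF-kappaB dimers in the cytoplasm, showed the same turnover, with a knockdown effect of -0.58 in vehicle and 0.54 on LPS (interaction 1.12 ± 0.10, adjusted p = 2.24e-05). Rel, the c-Rel subunit, rose 6.27-fold in control and 9.49-fold in silenced cells (interaction 0.60 ± 0.11, adjusted p = 0.00328). Tnip1 was called in the 12-library fit but not without control vehicle replicate 1 or 2, control LPS replicate 1 or 3, Brg1 siRNA vehicle replicate 2 or 3, or Brg1 siRNA LPS replicate 1.

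Several brakes on signalling and on mRNA stability were called higher. Of 15 MAP kinase phosphatases and mRNA decay factors, 6 were called higher (Dusp4, Dusp5, Zfp36l1, Zfp36l2, Btg1 and Btg2) and 0 lower, with a median of 0.54. These are 40% and 0%, against 9.05% and 6.98% of all tested genes. The list's median knockdown effect was -0.24 in vehicle and 0.52 on LPS. Btg1, which recruits the deadenylase that shortens poly(A) tails, read 2843, 2493 and 2369 in vehicle and 4254, 4255 and 4178 on LPS with control siRNA. With Brg1 siRNA it read 1803, 1876 and 1773 and 8357, 9185 and 8321. The silenced cells lay below the controls in vehicle and above them on LPS, in all 3 libraries each, and the interaction was 1.52 ± 0.09 (adjusted p = 1.84e-06). Dusp5, a nuclear phosphatase of ERK, rose 1.28-fold with control siRNA and 9.97-fold with Brg1 siRNA (interaction 2.99 ± 0.31, adjusted p = 8.7e-05). Zfp36l1, which binds AU-rich elements in mRNA, fell on LPS in both arms, from 405, 432 and 463 to 12.4, 12.7 and 14.97 in control cells and from 488, 382 and 370.0 to 41.1, 66.0 and 47.7 in silenced cells. Its fall was smaller in silenced cells, and the interaction was 1.93 ± 0.25 (adjusted p = 0.000366).

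Immediate early genes divided. Of 22 tested, 6 were called higher (Fosl2, Egr2, Ier5, Myc, Klf4 and Klf6) and 4 lower (Fos, Batf, Ier3 and Nr4a3), with a median of 0.48. Over all tested genes such calls made up 9.05% and 6.98%, against 27.3% and 18.2% here. With the pair of libraries from the higher number series left out, 2 were lower. Egr2 (chr10:67535475-67542188, forward strand), a zinc finger factor of macrophage activation, read 527, 475 and 533 in control vehicle libraries and 648, 639.8 and 581 on LPS. The silenced libraries read 189.8, 205 and 195 in vehicle and 1524, 1659.9 and 1565 on LPS. It was thus 2.6-fold lower in silenced vehicle cells and 2.54-fold higher in silenced LPS cells, and the LPS response was 8.05-fold against 1.22-fold (interaction 2.72 ± 0.10, adjusted p = 5.29e-08). Fos (chr12:85473890-85477273, forward strand), a subunit of AP-1, read 2725, 2664 and 2830.2 in control vehicle libraries and 442, 407 and 489.9 on LPS. With Brg1 siRNA it fell from 1188, 1381 and 1293 to 29.9, 54.8 and 29.6. At 6 h Fos was below its vehicle level in both arms, and the fall was 6.14-fold in control and 33.8-fold in silenced cells (interaction -2.48 ± 0.26, adjusted p = 0.000103). Nr4a3, an orphan nuclear receptor near 0 in vehicle, lost its call without the higher number series (adjusted p = 0.0647) and in edgeR (0.17).

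Tumour necrosis factor and some other cytokines reached higher LPS levels after silencing. Tnf (chr17:35199381-35202007, reverse strand) read 535, 542 and 587 in vehicle and 105469, 111627 and 105988 on LPS with control siRNA. In silenced cells it read 616, 630.2 and 642 and 203236, 195944 and 212568. The arms did not overlap in either treatment, the gap widened from 1.13-fold in vehicle to 1.89-fold on LPS, and the interaction was 0.74 ± 0.07 (adjusted p = 2.87e-05). Tnfsf9, the ligand of the T cell receptor 4-1BB, did not pass the test in vehicle (51.9, 51.4 and 54.2 against 48.6, 43.8 and 52.9; knockdown adjusted p = 0.307). On LPS it read 2875, 3139.9 and 2922 with control and 9829.7, 9096 and 10110.3 with Brg1 siRNA, 3.25-fold apart (interaction 1.82 ± 0.11, adjusted p = 1.84e-06). Tnfsf4, the ligand of OX40, was called higher too (2.46 ± 0.45, adjusted p = 0.00326). Of the 18 tested TNF family ligands and receptors, 4 were higher (Tnf, Tnfsf4, Tnfsf9 and Tnfsf12) and 4 lower (Tnfsf10, Tnfrsf1a, Tnfrsf1b and Tnfrsf11a), and 7 were lower under plain totals or edgeR. Each count of 4 was 22.2% of the list, against 9.05% higher and 6.98% lower of all tested genes.

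Csf2, the granulocyte-macrophage colony-stimulating factor, was close to silent in vehicle, with 0.837, 0 and 0 in control and 0, 0 and 0 in silenced libraries. On LPS it read 655, 620.1 and 528 in control and 3314, 2842 and 3572 in silenced libraries, a 5.39-fold difference with no overlap. Because vehicle values stood at or near 0, the fitted interaction of 2.72 ± 0.34 (limma adjusted p = 0.000278) depends on the pseudocount, and neither edgeR (adjusted p = 0.213) nor DESeq2 (0.141) called it. The same holds for Lif and Areg, which also read at or near 0 in vehicle: on LPS, Lif read 30.4, 34.7 and 18.2 in control and 132, 123 and 176 in silenced libraries, and Areg 16.9, 18.5 and 18.2 and 79.8, 111 and 165. Their adjusted p were 0.182 and 1 in edgeR and 0.165 and 0.292 in DESeq2. Il6 showed the opposite: it was listed at 0 in all 6 vehicle libraries, and on LPS reached 15424, 16803 and 16039 in control against 9108, 7337 and 10314 in silenced libraries. Its LPS level was 1.8-fold lower in silenced cells without overlap, its limma interaction was -0.86 ± 0.18 (adjusted p = 0.00715), and it was not called in edgeR (1), DESeq2 (0.818) or without the higher number series (0.0601). Over 25 tested cytokines and growth factors, 7 were higher and 5 lower, or 28% and 20% against 9.05% and 6.98% of all tested genes. Both edgeR and DESeq2 called 3 higher, and the lower count was 3 without the higher number series.

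Il1rn and Clcf1, which act in the interleukin-1 and interleukin-6 systems, changed in opposite directions. Il1rn, the secreted antagonist of the interleukin-1 receptor, read 612, 662 and 530.4 in control vehicle libraries and 1766, 1698 and 1883 in silenced ones. On LPS it read 16437, 14412 and 15334 and 10934, 9295 and 10846. The knockdown thus raised it 2.96-fold in vehicle and lowered it 1.49-fold on LPS, with no overlap in either treatment (interaction -2.14 ± 0.12, adjusted p = 1.8e-06). Clcf1, a cytokine of the interleukin-6 family, rose 92.1-fold in control and 725-fold in silenced cells, from a vehicle level under 11 (interaction 2.76 ± 0.51, adjusted p = 0.00351).

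Several classic LPS genes had no called interaction. Il1b read 188868, 177982 and 166719.6 on LPS in control and 230576, 200708 and 243748 in silenced cells (interaction 0.56 ± 0.31, adjusted p = 0.254). Il12b, a subunit of interleukin-12, read 12334, 10064 and 10459 and 29508, 25683 and 33583 on LPS, 2.7-fold apart without overlap, from vehicle values of at most 3.31 (interaction 1.54 ± 0.70, adjusted p = 0.166). With a pseudocount of 5 its adjusted p was 0.00319. Nos2, the inducible nitric oxide synthase, read 6425, 6107 and 6449.7 and 12507, 12129 and 12732 on LPS, again apart, with vehicle values of 2.62 to 9.21 (interaction 0.64 ± 0.51, adjusted p = 0.451, and 0.00366 with a pseudocount of 16). For Il12b and Nos2 the LPS levels were separated and the call rested on how vehicle values near 0 were weighted. Cxcl10 (0.29 ± 0.20, adjusted p = 0.373) and Ptgs2 (0.26 ± 0.13, adjusted p = 0.209) were not called under any of the 25 alternatives.

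**Figure D2:**
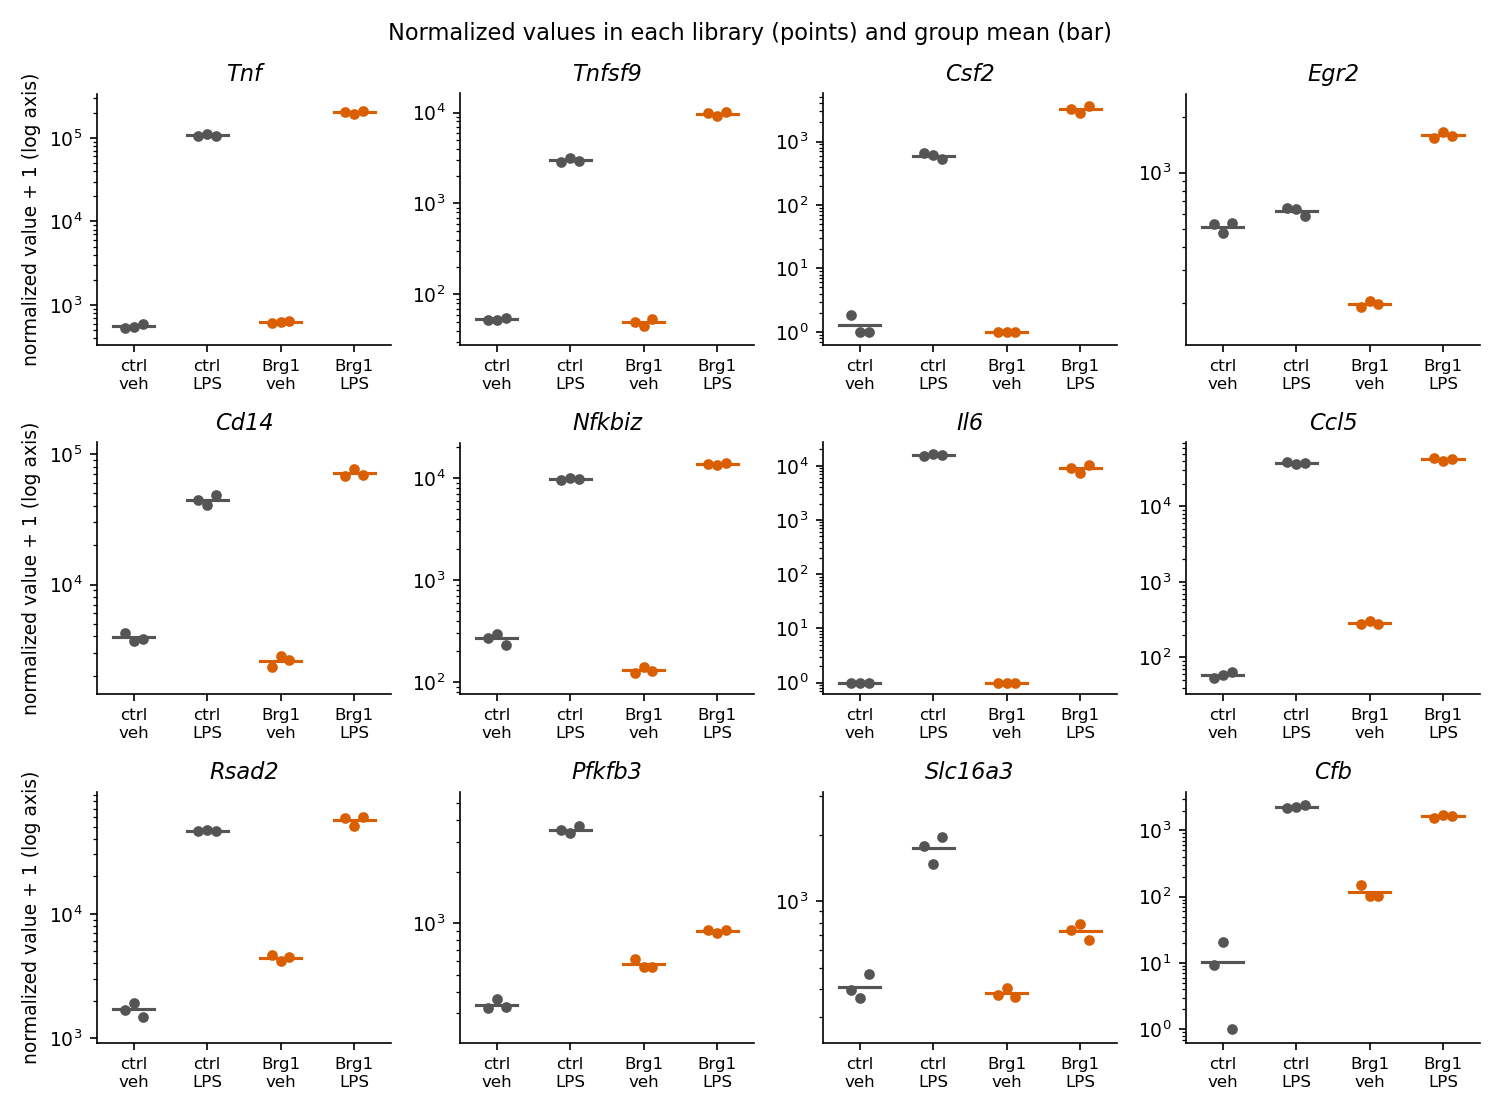
Normalized value plus 1 (log axis, with its own range for each gene) of 12 genes in the 3 libraries of each group: control siRNA with vehicle and LPS (grey), Brg1 siRNA with vehicle and LPS (orange). Points are libraries and bars group means. The arms cross between vehicle and LPS for Egr2, Cd14, Nfkbiz, Pfkfb3 and Cfb, while Il6 is listed at 0 in every vehicle library.

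Chemokines went both ways. Of 21 tested, 5 were called higher (Ccl7, Ccl9, Ccl22, Cxcl2 and Cxcl16) and 3 lower (Ccl4, Ccl5 and Cxcl5), or 5 lower with a pseudocount of 16. The 5 higher were 23.8% and the 3 lower 14.3%, against 9.05% and 6.98% of all tested genes. Ccl5, which attracts T cells and monocytes, read 51.9, 57.2 and 63.8 in control and 273, 304 and 279.7 in silenced vehicle libraries, and 39054, 35986 and 37309 and 43942, 40125 and 41951 on LPS. The knockdown difference was 4.96-fold in vehicle and 1.12-fold on LPS (knockdown adjusted p = 0.0947), so the LPS response was 147-fold instead of 650.0-fold, from a raised starting level (interaction -2.13 ± 0.10, adjusted p = 6.48e-07). Ccl4 followed the same course with a knockdown difference of 2.88-fold in vehicle and 1.49-fold on LPS (interaction -0.95 ± 0.09, adjusted p = 4.62e-05). Ccl22, a ligand of CCR4, did the reverse: it was 2.94-fold lower in silenced vehicle cells and at 16495, 12409 and 16362 against 16013, 12942 and 12142 on LPS, where the arms overlapped (interaction 1.63 ± 0.21, adjusted p = 0.000366).

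Several receptors for chemoattractants lost less, or gained more, on LPS after silencing. Of 24 tested, 9 were called higher (among them Ccr1, Ccr2, Ccr3, C3ar1, C5ar1, P2ry13, P2rx7 and Ptger4) and 2 lower (Fpr1 and P2ry6), with a median interaction of 0.57. The 9 were 37.5% of the list and the 2 were 8.33%, against 9.05% and 6.98% of all tested genes. The list's median knockdown effect was -0.38 in vehicle and 0.22 on LPS. Ccr3, the eotaxin receptor, read 552, 657 and 542 in control vehicle libraries and 231, 209 and 220.3 on LPS. In silenced cells it rose from 42.3, 39.1 and 33.3 to 113, 122 and 132. LPS lowered Ccr3 2.65-fold in control cells and raised it 3.21-fold in silenced cells, though silenced cells stayed below control cells in both treatments (interaction 3.06 ± 0.17, adjusted p = 1.67e-06). Ccr2, the receptor of monocyte chemoattractant proteins, fell 12.1-fold in control cells, from 148, 169.9 and 154 to 16.9, 9.26 and 12.8. With Brg1 siRNA Ccr2 went from 39.1, 39.1 and 37.5 to 21.2, 21.2 and 23.9 (interaction 2.75 ± 0.29, adjusted p = 9.81e-05). Ptger4, a receptor of prostaglandin E2, fell in control cells and rose in silenced cells, from 349.9, 361 and 327 to 240.1, 266 and 231 and from 234, 207 and 224 to 589.7, 529.6 and 469 (interaction 1.74 ± 0.14, adjusted p = 1.13e-05). Fpr1, the receptor of formylated bacterial peptides, was near 0 in vehicle and lost its call in DESeq2 (adjusted p = 0.0938).

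Many interferon-stimulated genes, which carry out the antiviral programme, had a smaller LPS response in silenced cells. Of 41 tested members, 20 were called lower and 0 higher, a share of 48.8% against 6.98% of all tested genes, and the list's median was -0.36. The smaller response started from a higher level: in vehicle the knockdown raised 35 of the 41 and lowered 0, with a median of 0.61, and on LPS it raised 19 and lowered 2, with a median of 0.19. The LPS response had a median of 1.94 with control and 1.49 with Brg1 siRNA. The count called lower was 12 with the pair from the higher number series left out, 14 without control LPS replicate 1 and up to 24 in the other alternatives.

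Rsad2 (chr12:26442746-26456452, reverse strand), which encodes the antiviral enzyme viperin, read 1704, 1937 and 1474 in control and 4666, 4161 and 4505 in silenced vehicle libraries. On LPS it read 45919, 47005 and 46163 and 58762, 50488 and 60029.7. Silenced cells were above control cells in both treatments, by 2.61-fold in vehicle and 1.22-fold on LPS, and the LPS response was 12.7-fold against 27.2-fold (interaction -1.11 ± 0.13, adjusted p = 0.000189). Mx1, a GTPase that blocks viral replication, was 1.86-fold higher in silenced vehicle cells and did not pass the test on LPS (7037, 7160.1 and 7338 against 6271, 6056 and 6131, knockdown adjusted p = 0.244), with an interaction of -1.15 ± 0.20 (adjusted p = 0.00261). Ifit1bl1, of the family that binds viral RNA, had the largest interaction of the list, -1.65 ± 0.22 (adjusted p = 0.000487), with 19.3% of its 31-base words shared with another gene.

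Regulators of the interferon system were called in both directions. Of 21, 6 were called higher (Irf1, Irf2, Irf5, Ifngr1, Stat4 and Socs3) and 3 lower (Ifnar1, Ifngr2 and Stat3). That is 28.6% and 14.3%, against 9.05% and 6.98% of all tested genes. The lower count was 1 in the fit of all 20 libraries and 5 with plain totals. Socs3 lost its call in 8 of the 25 alternatives, 6 of them without a single library (adjusted p up to 0.0581) and 1 without the higher number series (0.0664). Irf1, a transcription factor induced by NF-kappaB, read 13502, 14548 and 13795 on LPS in control and 24248, 24108 and 23899.8 in silenced cells, 1.73-fold apart against 1.35-fold in vehicle (interaction 0.35 ± 0.05, adjusted p = 0.00107). Stat4, which relays interleukin-12 signals, went from 46.0, 32.3 and 38.4 in vehicle to 33.8, 39.3 and 37.4 on LPS in control cells, with overlap. With Brg1 siRNA Stat4 rose from 23.1, 15.6 and 16.2 to 119.7, 96.0 and 94.3 (interaction 2.51 ± 0.29, adjusted p = 0.000187), and 23.7% of its 31-base words are shared with another gene. Ifngr1, a chain of the interferon-gamma receptor, fell to 1274, 1275 and 1354 in control cells and stayed at 2612, 2771 and 2379 in silenced cells on LPS, from 2431, 2399.7 and 2382 and 2879, 2787 and 2675 in vehicle (interaction 0.78 ± 0.08, adjusted p = 7.72e-05).

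To set genes with a smaller response beside genes with a larger one, the 250 bases before the start of 2 interferon-stimulated genes with a smaller response and of 2 genes with a larger one are printed here from RefSeq (GRCm38.p6), 5′ to 3′ on the gene's strand, none overlapping an annotated exon. Capitals mark matches, on either strand, to the interferon-stimulated response element (GAAA, any 2 bases and again GAAA), the TATA box TATAAA or the AP-1 site TGANTCA. Rsad2 lies on the reverse strand (chr12:26456453-26456702), Ifit1bl1 on the reverse strand (chr19:34601969-34602218), Tnf on the reverse strand (chr17:35202008-35202257) and Btg1 on the forward strand (chr10:96616751-96617000).
Rsad2: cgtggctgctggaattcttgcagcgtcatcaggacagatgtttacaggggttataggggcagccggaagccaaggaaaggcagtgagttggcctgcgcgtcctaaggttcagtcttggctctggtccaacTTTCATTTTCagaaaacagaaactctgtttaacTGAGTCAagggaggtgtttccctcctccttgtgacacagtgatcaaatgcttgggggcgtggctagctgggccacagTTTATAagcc
Ifit1bl1: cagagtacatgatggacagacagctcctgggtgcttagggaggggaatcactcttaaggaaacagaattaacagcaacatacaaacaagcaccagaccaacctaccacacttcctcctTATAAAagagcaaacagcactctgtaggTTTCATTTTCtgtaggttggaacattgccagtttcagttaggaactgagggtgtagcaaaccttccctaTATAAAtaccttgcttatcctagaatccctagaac
Tnf: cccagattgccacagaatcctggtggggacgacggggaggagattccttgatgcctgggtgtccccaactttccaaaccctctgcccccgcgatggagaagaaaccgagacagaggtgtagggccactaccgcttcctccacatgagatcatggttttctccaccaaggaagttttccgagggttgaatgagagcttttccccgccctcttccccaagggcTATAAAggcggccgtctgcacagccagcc
Btg1: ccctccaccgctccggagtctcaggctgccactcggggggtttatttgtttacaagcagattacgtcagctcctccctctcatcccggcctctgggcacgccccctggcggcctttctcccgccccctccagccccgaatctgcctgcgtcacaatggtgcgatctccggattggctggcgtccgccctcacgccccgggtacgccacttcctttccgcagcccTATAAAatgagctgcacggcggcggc
The response element match begins 120 bases before the start in Rsad2 and 104 bases before it in Ifit1bl1, both on the opposite strand, and no match occurs in this window of Tnf or Btg1. These 4 are examples and not a rule: Stat4 (from 1 of its starts) and Cd59a, both called higher, hold the element letters 97 and 187 bases before the start, and Ifit2, called lower, holds none in this window. TATA box matches begin 29 bases before the start of Tnf and 26 before that of Btg1.

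Promoters of 300 bases (250 before to 50 after the start) were found in the RefSeq table for 9243 of the 11848 tested genes. The response element letters occurred in 12 of 16 promoters of interferon-stimulated genes called lower, in 11 of 22 of tested members not called lower and in 3.34% of the promoters of all tested genes. Over the whole table, 3.91% of promoters of genes called higher and 4.90% of those called lower held the response element, 8.80% and 7.53% a TATA box against 7.09% of all, and 7.82% and 5.70% an AP-1 site against 5.29%. The letters of the hypoxia response core, ACGTG, which overlaps itself on the opposite strand in CACGTG, occurred in 22.8% of promoters called higher, 30.2% called lower and 25.9% of all. Among glycolysis and hypoxia genes they occurred in 10 of 19 promoters of genes called lower (52.6%). In tested members not called lower the count was 9 of 15 (60.0%). The median ratio of observed to expected CpG dinucleotides was 0.71 in genes called higher, 0.75 in genes called lower and 0.76 in all tested genes. Interferon-stimulated genes had low ratios whether called lower (median 0.33) or not (0.25). Genes with several starts enter these shares once per start.

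Many genes of glycolysis and the hypoxia response were induced less by LPS in silenced cells. Of 26 tested, 14 were called lower (Hk1, Hk2, Gpi1, Pfkl, Pfkfb3, Pgk1, Pgam1, Eno1, Ldha, Slc16a1, Slc16a3, Pdk1, Bnip3 and Ndrg1) and 0 higher, with a median interaction of -0.45. As shares of the list these are 53.8% and 0%, against 6.98% lower and 9.05% higher of all tested genes. The count called lower was 11 to 16 over the 25 alternatives, and 1 was called higher in DESeq2, without Brg1 siRNA LPS replicate 1 or with the number series as a term. The list's median knockdown effect was -0.16 in vehicle and -0.63 on LPS, where 22 of 26 members fell and 3 rose. The called members include enzymes from hexokinase to lactate dehydrogenase and exporters of lactate.

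Pfkfb3 (chr2:11471433-11554077, reverse strand) makes fructose-2,6-bisphosphate, the activator of phosphofructokinase. It read 321, 359 and 322 in vehicle and 3501, 3361 and 3669.8 on LPS with control siRNA. In silenced cells it read 622, 556 and 553 in vehicle and 914, 879.8 and 913 on LPS. Silenced cells were 1.73-fold above control cells in vehicle and 3.89-fold below them on LPS, with no overlap, and the LPS response was 1.56-fold against 10.5-fold (interaction -2.75 ± 0.09, adjusted p = 4.48e-08). Pfkl, the liver-type phosphofructokinase subunit, did not pass the test in vehicle (knockdown adjusted p = 0.809) and read 1683, 1470.4 and 2077 against 679, 744 and 633 on LPS (interaction -1.38 ± 0.16, adjusted p = 0.000207). Slc16a3, the lactate exporter MCT4, read 395, 365 and 466 and 373, 404 and 366 in vehicle, overlapping, and 1771, 1469 and 1962 and 741, 789 and 665 on LPS, apart (interaction -1.14 ± 0.16, adjusted p = 0.000722). Bnip3, a mitophagy receptor induced in hypoxia, rose from 390.0, 339 and 357 to 846, 696 and 754 in control cells and fell from 383, 371 and 366 to 340.4, 282 and 305 in silenced cells (interaction -1.35 ± 0.13, adjusted p = 5.09e-05), with 20.3% of its 31-base words shared with another gene. Hif1a itself had an interaction of -0.06 (adjusted p = 0.794), and the glucose transporter Slc2a1 -0.04 (adjusted p = 0.822). Both were named after their values were seen.

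Several antimicrobial and acute phase genes were called lower. Of 21 tested effector genes, 9 were called lower (among them Acod1, Ass1, Slc7a2, Saa3, Hp, Marco, Slpi and Slc39a14) and 2 higher (Arg2 and Ncf1), with a median of -0.32. Lower calls made up 42.9% of the list, against 6.98% of all tested genes. Higher calls made up 9.52%, near the 9.05% of all. Saa3, an acute phase serum amyloid protein, read 41.8, 51.4 and 33.2 in control and 100.46, 109 and 125 in silenced vehicle libraries, then 68680.1, 71749 and 78985 and 32065, 32176 and 34498 on LPS. It was 2.65-fold higher in silenced vehicle cells and 2.22-fold lower on LPS, without overlap (interaction -2.55 ± 0.18, adjusted p = 6.27e-06). Hp, the haemoglobin scavenger haptoglobin, read 5.86, 5.8 and 6.12 in control and 3.99, 4.69 and 5.12 in silenced vehicle libraries, and 112, 141 and 163 and 22.4, 18.7 and 15.9 on LPS. It was 7.28-fold lower in silenced cells on LPS without overlap (interaction -2.48 ± 0.34, adjusted p = 0.000523). The vehicle difference was 1.29-fold, also without overlap, but at values of at most 6.12 it rests on few reads. Mt2, a metallothionein that binds zinc and copper, rose 28.9-fold in control and 3.47-fold in silenced cells (interaction -3.04 ± 0.21, adjusted p = 4.62e-06). Arg2 was not called in edgeR (adjusted p = 0.0724) or DESeq2 (0.0754).

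Lipid mediators and complement gave single large differences. Ptges, which makes prostaglandin E2 downstream of cyclooxygenase, did not pass the test in vehicle (36.8, 23.2 and 29.7 and 34.3, 27.4 and 30.7, knockdown adjusted p = 0.81) and read 12226, 13001 and 14035 on LPS in control against 5144, 5266 and 5294 in silenced cells. The LPS levels were 2.5-fold apart without overlap (interaction -1.38 ± 0.19, adjusted p = 0.000619), while Ptgs2, the cyclooxygenase upstream of it, was not called. Of 14 prostaglandin and leukotriene genes, 1 was lower (7.14%, against 6.98% of all tested genes) and 2 higher (14.3%, against 9.05%). Neither of the 2 (Tbxas1 and Alox5ap) was called in the fit of all 20 libraries. Tbxas1 lost its call in 18 of the 25 alternatives, 11 of them without a single library (adjusted p up to 0.121), and Alox5ap in 2. Cfb, complement factor B, had the largest lower interaction of the named genes, -4.82 ± 1.12 (adjusted p = 0.013). Over the 25 alternatives the estimate ran from -5.74 to -2.94, with an adjusted p of up to 0.0441. Cfb read 8.37, 19.9 and 0 in control and 151, 100.1 and 103 in silenced vehicle libraries, and 2204, 2253 and 2418 and 1547, 1728 and 1636 on LPS. The size of its interaction thus rests on control vehicle values at or near 0. The difference lay in vehicle, where silenced cells were 12.5-fold higher, and 75.5% of its 31-base words occur in another gene, so its count is uncertain. C1qa, a chain of the complement initiator C1q, fell from 2507, 2458 and 2357 to 1857, 1933 and 2055 in control cells and rose from 1905, 1804 and 1866 to 2779, 2697 and 2672 in silenced cells (interaction 0.87 ± 0.07, adjusted p = 1.02e-05).

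Some macrophage identity genes fell less on LPS after silencing. Itgax instead rose in both arms, 1.7-fold with control and 3.06-fold with Brg1 siRNA, and Lyz2 fell with control and rose with Brg1 siRNA. Of 28 tested, 11 were called higher (Csf1r, Adgre1, Itgax, Cd68, Mrc1, Lyz2, Trem2, Tyrobp, Clec4d, Clec7a and Lgmn) and 4 lower (Fcgr2b, Fcgr3, Fcgr4 and Itgam). Shares were 39.3% and 14.3%, against 9.05% and 6.98% of all tested genes. The fit of all 20 libraries called 7 higher. Their LPS response had a median of -0.59 with control and -0.31 with Brg1 siRNA. Clec7a, the beta-glucan receptor dectin-1, fell from 4580.0, 4636 and 4631 to 2722, 2890.0 and 2163 in control cells. With Brg1 siRNA Clec7a went from 6145, 5859.7 and 5584 to 6153, 5532 and 5915, with overlap between vehicle and LPS (interaction 0.84 ± 0.13, adjusted p = 0.000944). The mannose receptor Mrc1 was 2.04-fold lower in silenced vehicle cells and 1.3-fold lower on LPS (interaction 0.65 ± 0.12, adjusted p = 0.00419). The 4 lower genes include 3 Fc gamma receptors, which bind immunoglobulin G. Fcgr4 read 777, 818 and 692 in control and 1853, 1677 and 1778 in silenced vehicle libraries, and 557, 620.1 and 616 and 651, 638 and 696 on LPS (interaction -1.07 ± 0.10, adjusted p = 5.42e-05). Silenced cells were 2.32-fold higher in vehicle and 1.11-fold on LPS, where the knockdown effect did not pass the test (adjusted p = 0.14).

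Lysosomal genes had 10 called higher and 1 lower of 28, and 5 higher in the fit of all 20 libraries, 6 without Brg1 siRNA vehicle replicate 2 or without replicate 3. The 10 and 1 were 35.7% and 3.57% of the list, against 9.05% and 6.98% of all tested genes. Ctsl, the lysosomal protease cathepsin L, read 15985, 15498 and 16321 on LPS in control and 26595, 27331 and 25479 in silenced cells, from 20219, 18571 and 16946 and 22546, 22577 and 21930.0 in vehicle (interaction 0.46 ± 0.08, adjusted p = 0.00258). Among lineage transcription factors 5 of 21 were higher (Runx1, Maf, Mitf, Bhlhe40 and Zeb2) and 1 lower (Cebpa), and the fit of all 20 libraries called 3 higher. The 5 and 1 were 23.8% and 4.76% of these factors. Bhlhe40, a repressor that restrains Il10 in macrophages, fell from 815, 749.9 and 731 to 498, 436 and 445 in control cells and rose from 505, 571 and 542 to 748, 754 and 789 in silenced cells (interaction 1.24 ± 0.10, adjusted p = 1.56e-05). Cebpa, a factor of myeloid commitment, fell 4.27-fold in control and 7.8-fold in silenced cells (interaction -0.88 ± 0.18, adjusted p = 0.00577). Costimulation ligands split: Cd80 had an interaction of 0.74 ± 0.15 (adjusted p = 0.00692) and Cd86 one of -0.67 ± 0.15 (adjusted p = 0.013). The knockdown raised both in vehicle and on LPS, Cd80 by 1.6-fold and 2.67-fold, Cd86 by 2.92-fold and 1.83-fold.

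Proliferation genes had a strongly negative median LPS response in both arms. Of 44 cell cycle genes, 8 were called higher (Mki67, Ccne1, Pcna, Nusap1, Foxm1, E2f1, E2f2 and Uhrf1) and 0 lower. These are 18.2% and 0%, against 9.05% and 6.98% of all tested genes. Without Brg1 siRNA LPS replicate 2, or without the higher number series, 3 were called lower, and edgeR and DESeq2 each called 1 lower. The list's median LPS response was -2.04 with control and -1.95 with Brg1 siRNA, and its median knockdown effect was -0.84 in vehicle and -0.56 on LPS. Foxm1, a factor of mitotic gene expression, fell from 213, 247 and 202 to 33.8, 31.2 and 42.8 in control cells and from 94.1, 128 and 103 to 62.3, 42.4 and 64.8 in silenced cells (interaction 1.65 ± 0.28, adjusted p = 0.00204). Kif15, a mitotic kinesin outside the list, went the other way and is listed at 0 in all 3 silenced LPS libraries, against 18.0, 20.8 and 22.5 in control LPS libraries. Its LPS level was at least 16.9-fold lower in silenced cells, against a floor of 3 reads over the group, and its interaction was not called with a pseudocount of 16 (adjusted p = 0.135).

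Matrix and protease genes included some with a wide gap between the arms in vehicle. Of 28 tested, 8 were called higher and 3 lower (Mmp13, Mmp14 and Timp1), or 7 lower with a pseudocount of 16, and 5 were higher when control vehicle replicate 1 or 2, control LPS replicate 1, Brg1 siRNA vehicle replicate 2 or Brg1 siRNA LPS replicate 1 was left out. The 8 and 3 were 28.6% and 10.7% of the list, against 9.05% and 6.98% of all tested genes. Col4a2, a chain of basement membrane collagen, read 264, 266 and 175 in control and 9.57, 9.38 and 10.2 in silenced vehicle libraries, then 839.9, 796 and 1008 and 139.6, 152 and 241 on LPS. It stayed lower in silenced cells in both treatments while the gap narrowed (interaction 2.09 ± 0.30, adjusted p = 0.00075). Mmp13, collagenase 3, was 1.92-fold higher in silenced vehicle cells and 1.56-fold lower on LPS (interaction -1.59 ± 0.18, adjusted p = 0.000163). Cass4, an adhesion scaffold, read 79.5, 85.3 and 86.5 and 10.4, 14.9 and 8.53 in vehicle and 359, 363 and 294 and 675, 581 and 679.7 on LPS. It was 7.45-fold lower in silenced vehicle cells and 1.9-fold higher on LPS (interaction 3.75 ± 0.24, adjusted p = 3.48e-06). Mycl, a MYC family factor of antigen-presenting cells, rose 36.2-fold in control and 386-fold in silenced cells, from 57.8, 53.0 and 38.4 and 1.59, 7.04 and 2.56 to 1743, 1713 and 1947 and 1448, 1359.6 and 1515 (interaction 3.25 ± 0.45, adjusted p = 0.000586).

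Metabolic and stress lists were called in both directions. Cholesterol synthesis had 3 higher (among them Insig1 and Stard4) and 1 lower (Acat2) of 24, or 12.5% and 4.17% against 9.05% and 6.98% of all tested genes. Targets of the lipid sensors LXR and PPAR had 3 higher (Abca1, Mylip and Lpl) and 1 lower (Fabp5) of 20, or 15% and 5%. Without Brg1 siRNA LPS replicate 3, 5 were higher. The unfolded protein response had 3 higher (Hspa5, Calr and Ppp1r15a) and 1 lower (Slc7a5) of 21, or 14.3% and 4.76%. Hspa5 lost its call in 16 of the 25 alternatives, 9 of them without a single library (adjusted p up to 0.109), Calr in 10 and 8 (up to 0.0831), and Slc7a5 without the higher number series (0.0577). The higher count was 1 when control vehicle replicate 1 or 3, control LPS replicate 1, Brg1 siRNA vehicle replicate 2 or 3, or Brg1 siRNA LPS replicate 1 or 3 was left out, and the lower count was 3 without control vehicle replicate 2. Ppp1r15a, the phosphatase subunit that restarts translation after stress, read 6472, 6528 and 6711 on LPS in control and 18152, 18265 and 17572 in silenced cells, 2.74-fold apart against 1.35-fold in vehicle (interaction 1.01 ± 0.08, adjusted p = 1.14e-05). Targets of the oxidant sensor NRF2 had 3 higher (G6pdx, Sqstm1 and Nfe2l2) and 4 lower (Hmox1, Gclc, Gsr and Keap1) of 21, or 14.3% and 19%. Haem oxygenase Hmox1 rose 3.65-fold in control and 2.41-fold in silenced cells (interaction -0.60 ± 0.07, adjusted p = 0.000207). BAF subunits had 2 higher (Actl6a and Actb) of 23 and 0 lower, or 8.7% and 0% against 9.05% and 6.98% of all. Actl6a lost its call in 20 of the 25 alternatives, 10 of them without a single library (adjusted p up to 0.104). None of 13 mitochondrially encoded transcripts was called by limma; as a share of the library they made up 1.94% to 2.22% in control and 1.53% to 1.69% in silenced vehicle libraries, and 1.01% to 1.5% and 0.856% to 1.19% on LPS.

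**Figure D3:**
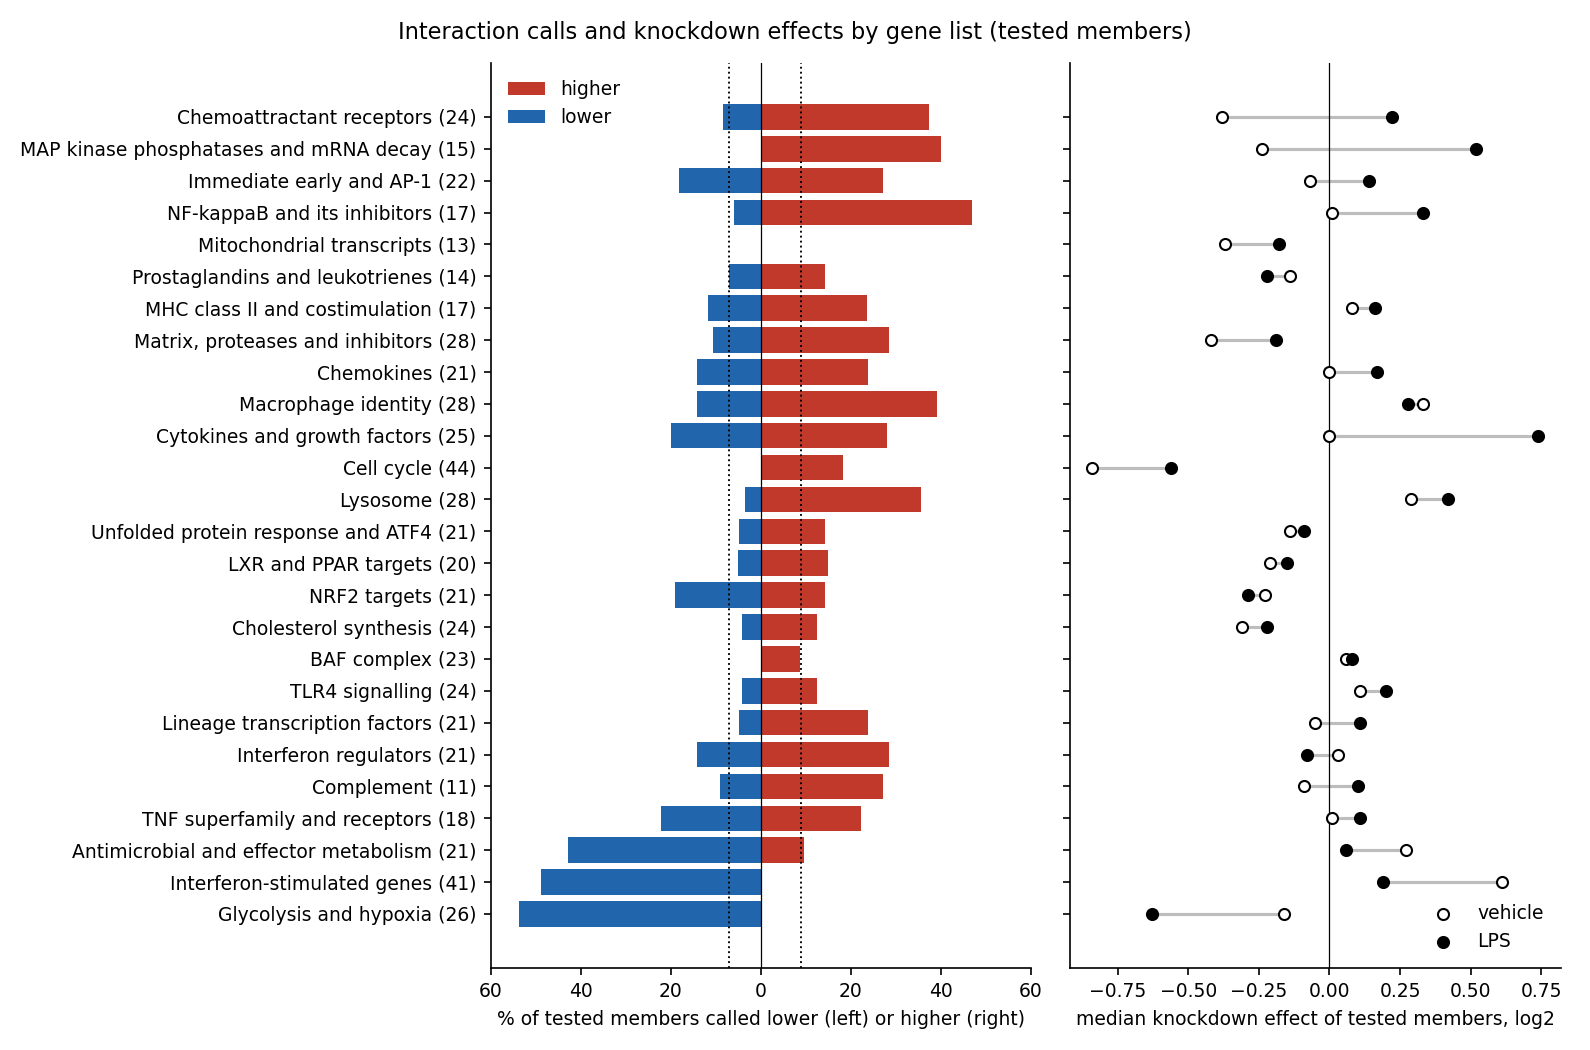
Gene lists with at least 10 tested members (number in brackets), ordered by median interaction. Left, percent of tested members called higher (right of 0) and lower (left of 0), with dotted lines at 9.05% and 6.98% for all tested genes; right, the median knockdown effect of each list in vehicle (open circles) and on LPS (filled circles), where glycolysis moves down from -0.16 to -0.63 and chemoattractant receptors up from -0.38 to 0.22.

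Markers of other cells were few and low. Of 8 tested neutrophil markers 1 was called lower (Csf3r), and their sum was 0.00554% to 0.00659% of the library in control and 0.0136% to 0.0151% in silenced vehicle libraries, and 0.0128% to 0.0145% and 0.0191% to 0.0208% on LPS. Of 2 tested mast cell and basophil markers 1 was called lower (Hdc) and 1 higher (Kit). Hdc, the histamine-making enzyme, read 0, 2.49 and 2.62 and 8.77, 7.04 and 4.26 in vehicle and 834, 759 and 908 and 340.4, 283 and 341 on LPS (interaction -3.05 ± 0.60, adjusted p = 0.00501). Kit went the other way (interaction 1.00, limma adjusted p = 0.0118), and lost its call in the fit of all 20 libraries (0.561). Of 4 tested B cell markers 1 was higher (Cd79b, not called in 9 of the fits without a single library), and none of 2 T and NK cell, 4 dendritic cell or 1 fibroblast markers was called. Whether these cells had a part in any result was not tested.

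Silencing reversed the direction of the LPS response at few genes. At a limma adjusted p under 0.05 in each arm, and with no library shared between the arms, 49 genes rose with control and fell with Brg1 siRNA, and 52 fell with control and rose with Brg1 siRNA, against 3936 that rose and 3992 that fell in both. With plain totals the 2 counts were 72 and 37. The knockdown effect itself reversed more often: 157 genes were lower in vehicle and higher on LPS, and 72 higher in vehicle and lower on LPS, or 109 and 96 with plain totals. Ccr3, Ptger4 and Bnip3 kept opposite LPS responses with plain totals, at -1.98 and 0.99, -1.07 and 0.57, and 0.50 and -0.95, as log2 with control and Brg1 siRNA. Bhlhe40, C1qa and Ctsl fell in both arms on that scale, with a smaller fall in silenced cells, and Klf4 fell in control cells alone at -1.14, with 0.10 in silenced cells (adjusted p = 0.446).

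The 8 libraries with Dex+LPS gave a second view of the silenced macrophage under LPS, since none of them entered the interaction. There the knockdown raised 1673 genes (14.1%) and lowered 1342 (11.3%). Of the 1072 genes with a higher interaction, 486 (45.3%, or 29.0% of the 1673) were higher and 71 (6.62%) lower with Dex+LPS. Of the 827 with a lower interaction, 278 (33.6%, or 20.7% of the 1342) were lower and 100 (12.1%) higher. The median knockdown effect with Dex+LPS was 0.29 in the first class and -0.20 in the second, against 0.01 for all tested genes. In the list of 41 interferon-stimulated genes, 20 had a lower interaction. With Dex+LPS 39 of the 41 were higher and 0 lower, with a median of 0.92. On LPS alone the knockdown had raised 19 of the 41 and lowered 2. Neither of these knockdown effects is set against vehicle, unlike the interaction. Rsad2 was higher by 1.81 (limma adjusted p = 3.14e-05) and Mx1 by 0.74 (0.00556). Tnfsf9 (1.67, 3.86e-06), Csf2 (2.09, 0.000228) and Btg1 (1.18, 3.86e-06) were higher as on LPS alone, and Il6 (-1.21, 0.000171), Ptges (-1.26, 9.81e-06) and Fos (-1.75, 3.34e-05) lower. Pfkfb3 at -0.25 did not pass the test (adjusted p = 0.0654).

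**Figure D4:**
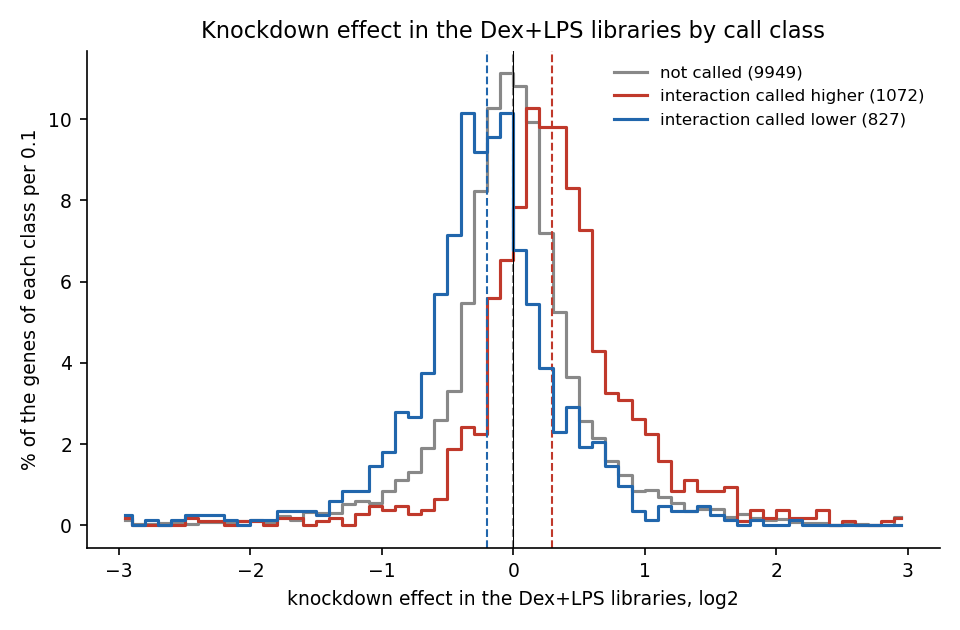
Knockdown effect (Brg1 siRNA against control siRNA, log2) in the 8 Dex+LPS libraries for genes called higher (red, 1072) or lower (blue, 827) in the interaction and for uncalled genes (grey), as percent of each class per step of 0.1. Dashed lines mark class medians, 0.29 for red and -0.20 for blue, and values beyond 3 in either direction are counted in the last step.

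Of the 15 largest interactions in each direction among genes with a group mean of at least 100, 5 lost their call when single libraries were left out. Add3 lost it in 8 of 12 cases (adjusted p up to 0.0668), Col4a1 in 7 (up to 0.0651), B3gnt8 in 11 (up to 0.0989) and AI413582 in 9 (up to 0.115). Cbx7 lost it without control vehicle replicate 2 (0.0531), control LPS replicate 3 (0.0557) or Brg1 siRNA vehicle replicate 2 (0.0616). Rnd1, a small GTPase that loosens adhesion, kept its call in all 12 cases: it read 7.53, 8.29 and 6.12 and 16.7, 19.5 and 11.9 in vehicle and 1692, 1562 and 2048 and 384, 361 and 399 on LPS. Silenced cells were 4.63-fold lower on LPS without overlap (interaction -3.22 ± 0.26, adjusted p = 1.15e-05). Plekhg3, Trim68 and E2f2 fell from group means above 50 to 0 or near 0 in control LPS libraries and to 4.99 or more in silenced ones. Their calls did not hold with a pseudocount of 16 (adjusted p of 0.152, 0.254 and 0.0944). Plekhg3 and Trim68 also lost theirs in the fit of all 20 libraries (0.087 and 0.191) and with the number series as a term (0.0758 and 0.156).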

How the data were processed

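RNA-seq was made from 20 samples. Tools named in the submitters' processing notes are R 4.1.0, DESeq2, DESeq and Salmon 1.4.0, and builds named there are GRCm38.p6 and mm10. The labels name a stranded mRNA kit and also rRNA depletion, and the strand setting is not given in the sources used here. The authors deposited 1 table of normalized signal, headed as DESeq-normalized, for 17787 genes. Dividing by the smallest step gave whole numbers (tolerance 0.01) for at least 99.904% of nonzero values in each of the 20 columns, so they are counts divided by a size factor, and depth was summed from the recovered reads. A floor of 3 reads, summed over the group, reflects counting error alone.

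The interaction was tested in R 4.3.3 with limma 3.58.1 (trend option), fitted to log2(value + 1) with 4 group means over 12 libraries, Benjamini-Hochberg adjustment over all 11848 genes and a threshold of 0.05. The plan named this test for normalized values. The knockdown with Dex+LPS was fitted on its own 8 libraries and the same genes. No 2 of the 12 libraries were duplicates: at most 3.22% of genes had equal reads. Alternatives were 3 other pseudocounts, 2 other filters, all 20 libraries, 2 scalings, a replicate block, the library number series, each library left out, and edgeR 4.0.16 and DESeq2 1.42.0 on the recovered reads. The fit was tested on simulated counts.

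Members and gene lists were chosen with earlier results of these data known. Named genes had a group mean of at least 100 and no library under 1/10 of its group's highest where that was 20 or more: the 15 largest called interactions in each direction, up to 4 called members per list, and 12 LPS genes. Coordinates are from GENCODE vM21 (GRCm38). Shared 31-base words were counted over its transcripts, promoter sequences are from RefSeq, and promoters overlapping an annotated exon are not printed. A reading at 0 may also be an assignment by the quantifier to another gene. Lists were tissue and pathway genes and markers of other cells. Some list members are counted but not reported by name here.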

Additional observations from a re-analysis of the deposited data

Results flagged for a closer look

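In the 8 Dex+LPS libraries, 60 groups of 4 (30 genes by 2 siRNAs) were checked for a library far from the other 3, and 9 stood out. The chance rate of the cut-off, about 1 in 20, holds for normally distributed values. Where the other 3 libraries read 0, as for B3gnt8 and Ccr2, any nonzero value stands out. Normalized values are given. With control siRNA, Trim68 was listed at 0 in 1 library against 30.99 to 35.6 in the others. B3gnt8 read 50.5 against 0. Egr2 read 565.5 against 483 to 496.9. Pfkfb3 read 10940 against 13690 to 13760, Saa3 202100 against 148000 to 151100 and Ccl5 28370 against 20550 to 21700. With Brg1 siRNA, Ccr2 read 1.07 against 0, Mt2 7207 against 4128 to 4554 and Dgat2 58.0 against 65.2 to 66.5.

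For 7 named genes the LPS response was called in opposite directions with the 2 siRNAs, and the difference itself passed the interaction test. The interaction was 3.06 for Ccr3, 1.74 for Ptger4, 1.33 for Klf4, 1.24 for Bhlhe40, 0.87 for C1qa, 0.46 for Ctsl and -1.35 for Bnip3 (limma adjusted p from 1.67e-06 to 0.00258). Vehicle and LPS libraries are separate samples, so each direction is a difference of group means. Plain totals kept the opposite directions for Ccr3, Ptger4 and Bnip3.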

How the results depend on the processing

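No gene was called in the opposite direction under any of the 25 alternatives. Leaving out single libraries gave 789 (without Brg1 siRNA vehicle replicate 3) to 1185 (without Brg1 siRNA LPS replicate 2) genes higher, and 577 (without Brg1 siRNA vehicle replicate 2) to 898 (without Brg1 siRNA LPS replicate 2) lower. For the knockdown with Dex+LPS the ranges were 1221 to 1742 higher and 904 to 1364 lower, lowest without Brg1 siRNA replicate 2 and highest without control replicate 2. edgeR called 922 higher and 942 lower, and DESeq2 1278 and 895 of 11143 genes with an adjusted p. Without the higher number series the counts were 1084 and 775, with the series as a term in a fit of all 20 libraries 1072 and 848, and without the term 771 and 609. Replicate numbers are shared between groups but name no common source. None of 18 same-number pairs correlated above 0.1 in their deviations (-0.23 to 0.09). With 3 libraries per group this check cannot exclude a common source. With a replicate block 886 genes were higher and 653 lower, and with Dex+LPS 1795 and 1445. The 2 libraries of the higher number series correlated at 0.25.

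Of 117 called named genes, 82 kept their call under all 25 alternatives and 103 in every fit without a single library, and 3 uncalled ones (Smarca4, Il12b and Nos2) gained one. Genes at or near 0 in vehicle are limited by depth: 35 called genes had a group at 0.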
